A study of Mus musculus with 2 samples.

Results

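Genes that mark the epithelium of the choroid plexus were followed in cochlear RNA, 9 in all: Ttr, Clic6, Sostdc1, Folr1, Kl, Otx2, Enpp2, F5 and Prlr. They were chosen by name as markers of that tissue, with their levels and log2 ratios on these arrays already known, and read from every non-control spot that carries one of these gene names. This gave 18 probes for 9 genes of the 37074 gene names on the array. The noise group was cochlear tissue taken 3 hours after a 2-hour exposure to intense noise, and the baseline group was cochlear tissue without the exposure. All mice were C57BL/6, a common inbred strain, female and 7 weeks old. Each group was 1 sample of total RNA on 1 one-colour Agilent array, the labels used here do not say how many mice it held, and so no difference below has a replicate check or a p-value.

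The choroid plexus is the folded epithelium of the brain ventricles that secretes cerebrospinal fluid. Its cells carry hormones, vitamins and ions between blood and fluid, and they release carrier proteins such as transthyretin. The cochlea has no choroid plexus, but it has fluid-secreting epithelia of its own, and several of the 9 genes are also made by other cells. In mouse, Otx2 is a gene of the developing otic vesicle, Kl is made in the stria vascularis, and Enpp2 is made by fat cells and oligodendrocytes.

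Both arrays lay on 1 slide and were read in 1 scan, per the file headers. The arrays were of similar brightness, with 75th percentiles of the processed signal of 316 (noise) and 278 (baseline) and 75.3% and 75.2% of probes well above background. The signals printed below are unscaled, each with the error that the scanner software gives for the spot. Every log2 ratio is noise minus baseline after each array was divided by its own 75th percentile. The error after a log2 ratio combines both spot errors and was at least 0.20 for every marker probe. It measures no spread between samples, and repeat spots of a probe gave a smaller SD of 0.07 for a ratio. A difference counted as called when it reached 2-fold, a log2 ratio of 1 in size. Over 9350 genes with several measured probes, the log2 ratios of different probes of a gene had an SD of 0.27, and the central 95% of all genes lay between -0.77 and 0.63.

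Of 15 listed genes of inner ear epithelia, 14 were well above background on both arrays, among them Slc26a4, Kcnq1 and Vmo1, and 1, Otx1, on neither. Detection alone does not tell tissues apart here, since 12 of 12 fat cell genes and 11 of 11 megakaryocyte genes were measured on both arrays too. All 18 probes of the choroid plexus markers were well above background on both arrays as well. The array carried 1 probe each for Clic6, Sostdc1 and F5, a pair each for Ttr, Folr1 and Kl, and 3 each for Otx2, Enpp2 and Prlr.

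The probes within a gene read different stretches of its transcripts, and for Prlr and Enpp2 they gave different ratios, so the first 30 of the 60 bases of the probes of the genes with several probes are shown here. They run 5′ to 3′ in the sense of the transcript, in lower case. Probes are numbered by their signal on the baseline array, and those of Ttr are left out.
Folr1 probe 1: gtggtggggctctgacagcctctttaataa
Folr1 probe 2: ctgggctttttcctgtgctccgagtaggtg
Prlr probe 1: caggttaacactacagagtcatgaaggaat
Prlr probe 2: cttgaaagacacaactgtgtggatcattgt
Prlr probe 3: cacaagaagcctctgtcttccatattgatc
Kl probe 1: ggagaatattgccagaacagctcaaaactg
Kl probe 2: ctgttattctgggatggttctggtagagaa
Enpp2 probe 1: agctattcggaaattctgaccctcaagaca
Enpp2 probe 2: gcaagtggtctctgcttctgctaccgcctt
Enpp2 probe 3: tctttatagacagtagaagttaaaggcaga
Otx2 probe 1: tttcagggctgtgtggattgtgcgactgat
Otx2 probe 2: gggacgtgtgcccctcGGATTAtctcgtta
Otx2 probe 3: tagggcacagctcgacgttctggaagctct
Capitals in Otx2 probe 2 mark GGATTA, the reverse complement of TAATCC, the core of the site that homeodomain proteins of the OTX type bind.

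On the mm9 assembly the files place the Folr1 probes on the minus strand at chr7:109006846-109006905 and chr7:109016972-109017031, in the order of their numbers. The Prlr probes lie on the plus strand at chr15:10259066-10259125, chr15:10255629-10255688 and chr15:10278249-10278308. The Kl probes lie on the plus strand at chr5:151796302-151796361 and chr5:151789486-151789545. The Enpp2 probes lie on the minus strand at chr15:54670921-54670980, chr15:54666799-54666858 and chr15:54700197-54700256. The Otx2 probes lie on the minus strand at chr14:49277855-49277914, chr14:49284952-49285011 and chr14:49281026-49281085. Exon and untranslated-region positions on mm9 were not analysed here.

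By the median of its probes, 2 of the 9 genes were at least 2-fold lower after noise, Ttr and Folr1, and none was 2-fold higher. Of the 26533 genes that both arrays measured, 1.25% were lower by 2-fold or more, 0.611% were higher by as much, and 1.86% were past 2-fold either way. The markers were chosen with this contrast known, so nothing is read from their count. Their median log2 ratio was -0.34, against -0.01 over all genes, with 6 genes below 0 and 3 above. In bulk tissue, fewer cells of a type and less RNA per cell cannot be told apart.

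**Figure D1:**
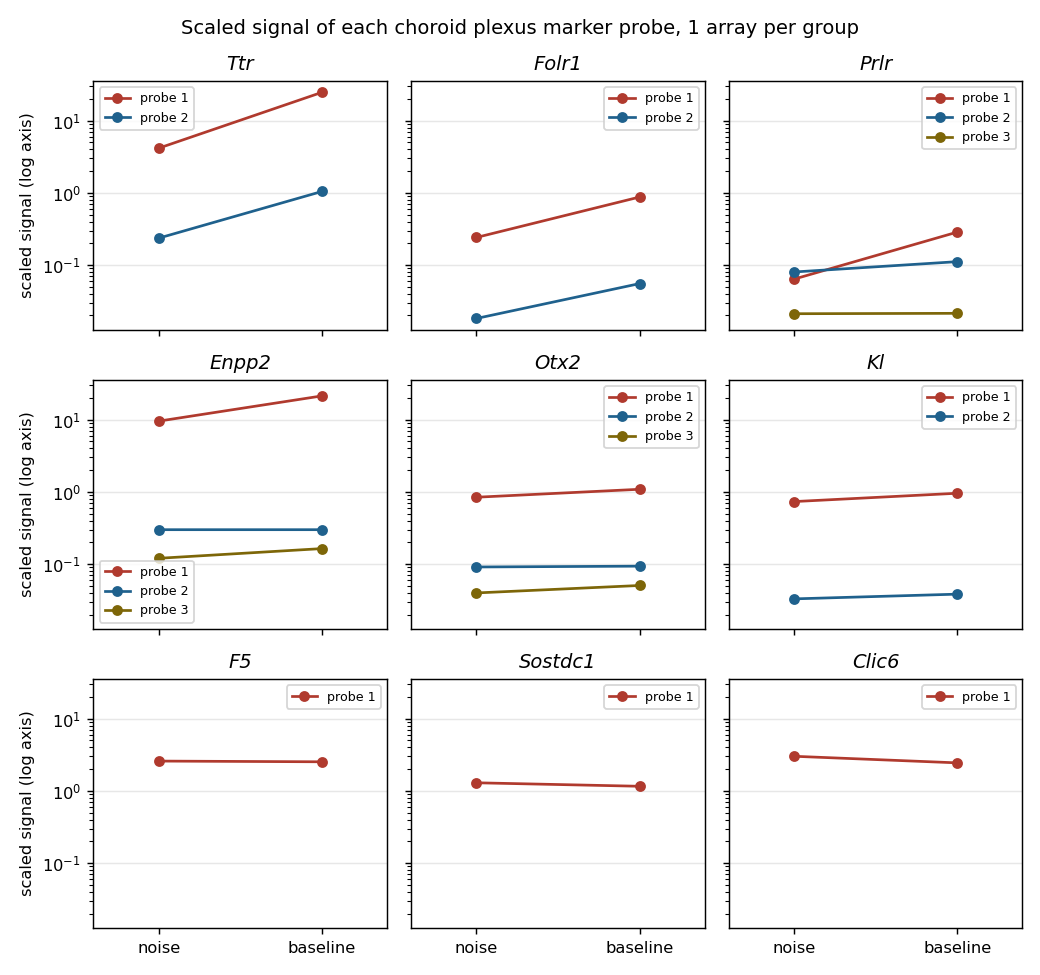
Scaled signal (processed signal divided by the array's 75th percentile, log axis) of every probe of the 9 genes on the noise array and the baseline array, 1 panel per gene and 1 line per probe, with 1 array per group. The lines of both Ttr probes, both Folr1 probes and probe 1 of Prlr and of Enpp2 are steep, and the other 12 lines are under 2-fold.

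Among the carriers and receptors, transthyretin stood furthest apart. Ttr, which encodes the carrier of thyroid hormone and of retinol-binding protein in blood and cerebrospinal fluid, had signals of 1312 ± 131 after noise and 6857 ± 686 at baseline with probe 1. With probe 2 it had 74.5 ± 7.51 after noise and 291 ± 29.1 at baseline. Both probes were therefore lower on the noise array, by far more than the scanner error of either.

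The log2 ratios of Ttr were -2.57 ± 0.20 and -2.15 ± 0.21 (scanner error), 5.93-fold and 4.43-fold lower after noise. The gene's median of -2.36 lay below the central 95% of genes. It stayed past 2-fold in all 9 alternative ways of processing, between -2.57 and -2.04. Some of these could not move it. The deposited value table, no filter on dim probes and a signal of at least 20 each gave -2.36 again. Stra6, the membrane receptor gene for retinol-binding protein, was at 0.50, and the thyroid hormone receptor genes Thra and Thrb were at -0.43 and -0.31. Rbp4, the gene of the retinol-binding protein itself, named here after its value was seen, was at 0.30.

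Folr1 encodes the folate receptor that takes folate across the choroid plexus into cerebrospinal fluid. Probe 1 had signals of 76.1 ± 7.69 after noise and 243 ± 24.4 at baseline, and probe 2 had 5.74 ± 1.23 after noise and 15.4 ± 1.88 at baseline. Both were lower on the noise array, but probe 2 lay close to 4.58, the lowest signal called well above background there.

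The log2 ratios of Folr1 were -1.86 ± 0.21 and -1.60 ± 0.36, which is 3.63-fold and 3.04-fold lower. With the normexp background, another correction that adds an offset and shrinks the ratios of dim probes, they were -1.32 and -0.36, and the gene's median of -0.84 was under 2-fold. The related receptor gene Folr2, a marker of tissue macrophages, was at -0.19 with signals of 57.3 after noise and 57.5 at baseline. Slc46a1, which encodes the proton-coupled folate transporter, was at -0.17, under 2-fold.

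Prlr encodes the prolactin receptor, which several tissues make besides the choroid plexus, where it has been linked to the transport of prolactin into the brain. Its 3 probes did not agree. Probe 1, which the array design assigns to transcript variant 1, had a signal of 20.1 ± 2.29 after noise and 79.5 ± 8.02 at baseline. Probe 2, assigned to several variants, had 25.3 ± 2.75 after noise and 31.0 ± 3.28 at baseline. Probe 3, assigned to transcript variant 2, had 6.68 ± 1.17 after noise and 5.96 ± 1.11 at baseline.

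Probe 1 of Prlr was lower after noise, with a log2 ratio of -2.16 ± 0.22 (4.48-fold), while probe 2 stood at -0.48 ± 0.22 and probe 3 at -0.02 ± 0.37. The distance of 2.15 between the highest and the lowest was wider than in 99.9% of the 9350 genes with several measured probes. Those genes were not matched for number of probes, and such a distance tends to grow with that number. The median of Prlr was -0.48. It was -1.32 when signals of at least 20 were required on both arrays, which removed probe 3. With the normexp background probe 1 was at -0.96, under 2-fold. Whether the probes read different transcript forms was not tested.

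Of the genes around the receptor, its hormone was past 2-fold and the 5 listed genes of its signalling chain were not. Prl, prolactin itself and a hormone of the anterior pituitary, had signals of 882 after noise and 8829 at baseline (log2 ratio -3.51). Socs2, a feedback inhibitor induced through this receptor and others, was at 0.47, and the signal transducer gene Stat5b at 0.31. The related growth hormone receptor gene Ghr was at 0.06.

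Kl encodes klotho, the membrane protein that acts as co-receptor for the bone hormone FGF23. Probe 1 had signals of 232 ± 23.2 after noise and 266 ± 26.6 at baseline. Probe 2, which the array design assigns to an mRNA for a secreted form of klotho, had 10.4 ± 1.41 after noise and 10.7 ± 1.41 at baseline. The ratios of -0.38 ± 0.20 and -0.22 ± 0.27 were both below 0 and under 2-fold, and their difference was smaller than the error of either. The hormone gene Fgf23 was at -0.21, and the kidney-type genes Slc34a1 (-0.80) and Cyp27b1 (-0.61) had signals under 20 on both arrays. Klb, which encodes the related co-receptor of the liver and fat cells, was called well above background at baseline but not after noise. It was at least 3.65-fold lower after noise, with low signals of 4.84 after noise and 15.6 at baseline.

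The secreted products differed from one another. Enpp2 encodes autotaxin, a secreted enzyme that makes the signalling lipid lysophosphatidic acid. Its probe 1, assigned to RefSeq transcripts, had signals of 3016 ± 302 after noise and 5939 ± 594 at baseline. Probe 2, assigned only to a cDNA clone from neonatal fat tissue, had 94.6 ± 9.52 after noise and 83.3 ± 8.39 at baseline. Probe 3, assigned only to a cDNA clone from hypothalamus, had 38.0 ± 3.93 after noise and 45.6 ± 4.66 at baseline.

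Of the Enpp2 probes, probe 1 was lower after noise by 2.24-fold (log2 ratio -1.16 ± 0.20). Probe 3 was at -0.45 ± 0.21 and probe 2 at 0.00 after rounding (± 0.21). Probe 1 stayed past 2-fold with the normexp background (-1.09) and fell just short of it with spike-in scaling (-0.99). The probes spanned 1.16, more than in 97.9% of genes with several measured probes, not matched for number of probes. Since a gene took the median of its probes, Enpp2 stood at -0.45 and was not among the called genes. The receptors of its product were not past 2-fold: Lpar4 was at 0.51 and Lpar2 at 0.26, and the lipid phosphatase gene Ppap2a, whose product degrades the lipid, was at 0.37. Enpp6, a relative of the same family and a marker of newly formed oligodendrocytes, was at -0.44, and Enpp1, Enpp3, Enpp4 and Enpp5 lay between -0.19 and 0.10. Enpp3 and Enpp5 were above 0 with spike-in scaling (0.04 and 0.14).

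Sostdc1, which encodes a secreted antagonist of BMP and Wnt signals, had signals of 410 ± 41.0 after noise and 323 ± 32.3 at baseline, a log2 ratio of 0.16 ± 0.20. Its relative Sost, the sclerostin gene of osteocytes, was at -0.84. The receptor and ligand genes on which Sostdc1 acts were all under 2-fold, with Lrp4 at 0.22, Bmp6 at 0.19 and Bmp4 at 0.16 (-0.04 with its highest-signal probe).

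F5, which encodes coagulation factor V and is made in liver and megakaryocytes besides the mouse choroid plexus, had signals of 819 ± 81.9 after noise and 705 ± 70.5 at baseline. Its log2 ratio of 0.03 ± 0.20 was smaller than its scanner error. Of the clotting cascade, F10 was at 0.41, Pros1 at 0.37, Proc at 0.36 and the related cofactor gene F8 at 0.11, all under 2-fold. With the normexp background Pros1 was at -0.03, Proc at -0.06 and F8 at -0.03. The prothrombin gene F2 was well above background at baseline only and has no ratio. Megakaryocyte and platelet markers, listed because F5 is also theirs, were above 0 in 10 of 11 genes (47.5% of all genes). None was past 2-fold, and their median was 0.30. Itga2b was at 0.72, Ppbp at 0.46, Treml1 at 0.42 and Gp9 at 0.38. The summed scaled level of that list was 89.7 after noise and 71.5 at baseline, and its part in the F5 value was not tested.

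Clic6 encodes a protein of the chloride intracellular channel family. Its signals were 955 ± 95.5 after noise and 681 ± 68.1 at baseline, and its log2 ratio of 0.30 ± 0.20 was the highest of the 9 markers, 1.23-fold. The family was uneven: Clic1 was at 0.95, Clic3 at 0.20, Clic5, a stereocilia protein of hair cells, at -0.07 (0.10 with spike-in scaling) and Clic4 at -0.31. The pair of Clic4 probes pointed in opposite directions (-0.79 and 0.18). Clic1 passed 2-fold with spike-in scaling (1.12).

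Otx2 encodes a homeodomain transcription factor that the choroid plexus needs for its formation and upkeep. Probe 1 had signals of 266 ± 26.7 after noise and 302 ± 30.3 at baseline, probe 2 had 28.8 ± 3.05 after noise and 26.0 ± 2.78 at baseline, and probe 3 had 12.6 ± 1.56 after noise and 14.1 ± 1.67 at baseline. The log2 ratios were -0.37 ± 0.20, -0.04 ± 0.22 and -0.34 ± 0.25, so that no probe was past 2-fold. The probes spanned 0.33, more than in 56.1% of genes with several measured probes, not matched for number of probes. The retinal relative Crx was at -0.19, and Otx1 was called well above background on neither array.

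**Figure D2:**
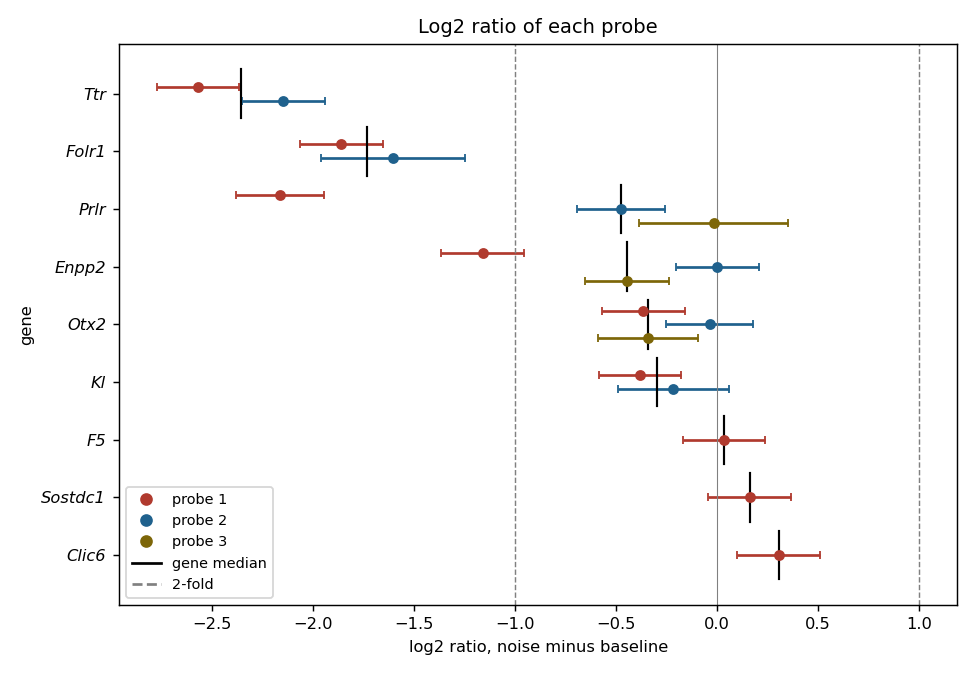
Log2 ratio (noise minus baseline, horizontal axis) of every probe of the 9 genes, ordered down the page by gene median, with bars for the scanner software's error, black ticks for the gene median and dashed lines at 2-fold. Ttr and Folr1 lie left of the 2-fold line with every probe, Prlr and Enpp2 with probe 1 only, and no probe of the other 5 genes crosses it.

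Otx2 probe 2 could be placed against a gene start. Its whole sequence lay in a RefSeq promoter window of Otx2 (chr14:48665060-48665359, minus strand, GRCm38.p6), ending 167 bases before the start that this window belongs to. That window was 1 of 4 for the gene, and RefSeq windows (250 bases before to 50 after a gene start) were matched by symbol for F5, Kl, Otx2 and Prlr, 9 in all. The letters TAATCC, searched on both strands, occurred in 1 of these 9, the one that holds the probe. Of all 32851 windows, 7.06% held them. A match is a description of letters, not of a bound site.

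Counted by probes, 6 of the 18 were at least 2-fold lower after noise, against 1.27% of all 41659 measured probes (1.88% past 2-fold either way), and none was 2-fold higher. The 6 belonged to 4 genes, with every probe of Ttr and Folr1 and 1 of 3 probes each of Prlr and Enpp2. With the highest-signal probe standing for each gene, 4 of 9 genes were at least 2-fold lower, and with the normexp background 1 of 9 was, Ttr. Each of the 9 genes kept the sign of its log2 ratio in all 9 alternatives, of which the deposited value table repeats the main setting by construction.

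**Figure D3:**
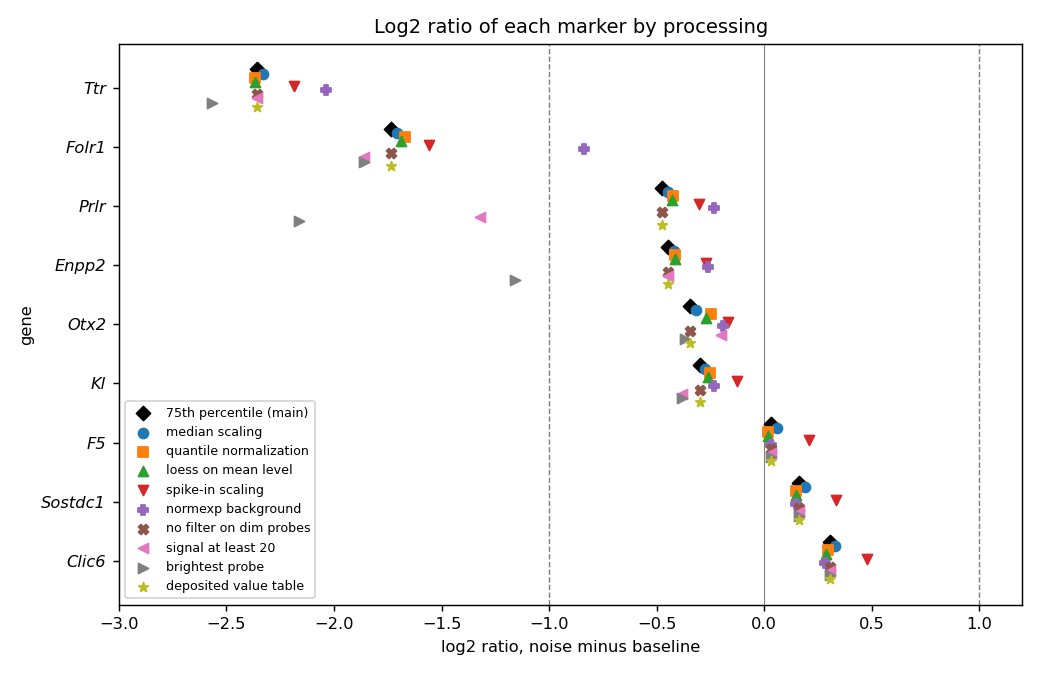
Log2 ratio (noise minus baseline, horizontal axis) of each of the 9 genes under the main processing (black diamonds) and 9 alternatives (other symbols), with dashed lines at 2-fold. Ttr stays left of -2 throughout, Folr1 crosses the 2-fold line with the normexp background, and Prlr and Enpp2 cross it to the left when the highest-signal probe stands for the gene, Prlr also when a signal of at least 20 is required.

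Of the further choroid plexus genes measured, 4 of 31 (12.9%) were past 2-fold in either direction, against 1.86% of all genes. This list too was chosen with earlier results of these data known, so nothing is read from its count. The share over all genes was not matched for signal. Of 32 listed genes, none of them among the 9, 31 were on the array and all 31 were measured on both arrays. Of these, 14 were above 0 and 17 below, with a median of -0.09 (0.08 with spike-in scaling, which moved the median of all genes to 0.16). Their summed scaled level was 141 after noise and 136 at baseline, slightly higher after noise. The 3 that were at least 2-fold lower were Slc4a5, a sodium bicarbonate cotransporter gene, Htr2c, a serotonin receptor gene, and Kcne2, a potassium channel subunit gene. Tmem72 was the 1 that was 2-fold higher.

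Slc4a5 had signals of 8.39 after noise and 41.2 at baseline (log2 ratio -2.48), Htr2c 24.8 after noise and 59.5 at baseline (-1.44), and Kcne2 155 after noise and 284 at baseline (-1.05). Tmem72 had signals of 59.4 after noise and 23.2 at baseline (1.17). None of these 4 was past 2-fold with the normexp background, in which they lay at -0.76, -0.64, -0.82 and 0.39, and Kcne2 was also under 2-fold with spike-in scaling (-0.88).

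Genes of tissues that border the choroid plexus, or that share its markers, gave the following values. Of all genes measured, 52.5% were below 0 and 1.25% were at least 2-fold lower. These lists were also chosen with earlier results known, so nothing is read from their counts. Ependyma, the ciliated lining of the ventricles, was below 0 in all 7 of its measured genes, around a median of -0.79. The 2 past 2-fold, Ccdc153 (-1.29) and Tmem212 (-1.11), are genes of motile cilia that other ciliated epithelia also express, and Foxj1 was at -0.95 and Dynlrb2 at -0.79. Its summed scaled level was 6.80 after noise and 10.02 at baseline, of which Rarres2 (log2 ratio -0.05) held 3.54 and 3.67. Tmem212 was under 2-fold with normexp (-0.91) and with spike-in scaling (-0.93), and spike-in scaling left 6 of the 7 below 0. No leptomeningeal marker of the 7 measured was past 2-fold, and their median was -0.11 (0.06 with spike-in scaling). Slc6a13 was at -0.71, Zic1 at -0.62, Foxc1 at 0.27 and Ptgds at -0.25. The summed scaled level of the list was 313 after noise and 370 at baseline, of which Ptgds alone held 280 and 332.

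Fat cell markers were lower after noise in 12 of 12 genes (52.5% of all genes), 9 of them at least 2-fold (1.25% of all genes). Ucp1 was at -2.81, Cidea at -2.69, Cidec at -2.28 and Cfd at -1.69. With spike-in scaling 11 of the 12 were below 0 and 7 at least 2-fold lower, and with the normexp background 6 were. Their summed scaled level was 30.1 after noise and 104 at baseline. Central glia markers were below 0 in 9 of 10 measured genes, 4 of them at least 2-fold lower, with a summed scaled level of 106 after noise and 128 at baseline. The 4 were Slc1a2 (-1.78), Olig1 (-1.43), Olig2 (-1.32) and Aldoc (-1.08). Olig2 was at -0.41 with the normexp background, Slc1a2 at -0.95 with no filter on dim probes, and Aldoc at -0.91 with spike-in scaling and -0.90 with the highest-signal probe, all under 2-fold. Opalin, a gene of myelinating oligodendrocytes, was at least 6.05-fold lower after noise, where its probe was not called well above background. Ermn, the 1 measured central glia gene above 0, was at 0.33. It held 63.7 of the summed level of that list after noise and 50.8 at baseline. Fat cells and oligodendrocytes both make Enpp2, and their part in its value was not tested.

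Pituitary markers were below 0 in 8 of 8 measured genes (52.5% of all genes) and at least 2-fold lower in 5 (1.25% of all genes). Their summed scaled level was 5.52 after noise and 39.1 at baseline, of which Prl alone held 2.79 and 31.7. Beside Prl, Cga was at -3.003, Gh at -2.89 and Pomc at -1.25 (Cga was at -1.35 with the normexp background), and the pituitary factor gene Pou1f1 was called well above background on neither array. Hindbrain neuron markers were below 0 in 9 of 11 measured genes and at least 2-fold lower in 5. Their summed scaled level was 49.6 after noise and 68.7 at baseline, of which Pvalb (log2 ratio -0.35) alone held 42.5 and 54.2. Glra1 was at -4.19, Slc32a1 at -3.25 and Gad2 at -2.90, while Pcp2, a gene of Purkinje cells, was higher at 1.60. Gad2 shrank to -1.07 under normexp and to -1.09 with no filter on dim probes. Slc6a5 was at least 45.6-fold lower and Cbln3 at least 2.18-fold lower after noise, both measured at baseline only. The part of these tissues in the values of Ttr, Folr1 and Prlr was not tested.

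Inner ear epithelium was listed because Otx2 is a gene of the developing otic vesicle and Kl of the stria vascularis. It was above 0 in 12 of the 14 genes measured, none past 2-fold, around a median of 0.30. With the normexp background the median was 0.12 with 3 genes below 0, and with spike-in scaling it was 0.47. The summed scaled level was 66.9 after noise and 54.7 at baseline. The part of this epithelium in the values of Otx2 and Kl was not tested. Otoa was at 0.60, Gata3 at 0.44, Vmo1 at 0.41 and Otog at 0.37. Over all genes, 47.5% had a log2 ratio above 0 and 52.5% below. The markers themselves had a summed scaled level of 22.5 after noise and 55.3 at baseline. Without Ttr and Enpp2, the other 7 summed to 8.79 after noise and 9.35 at baseline.

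**Figure D4:**
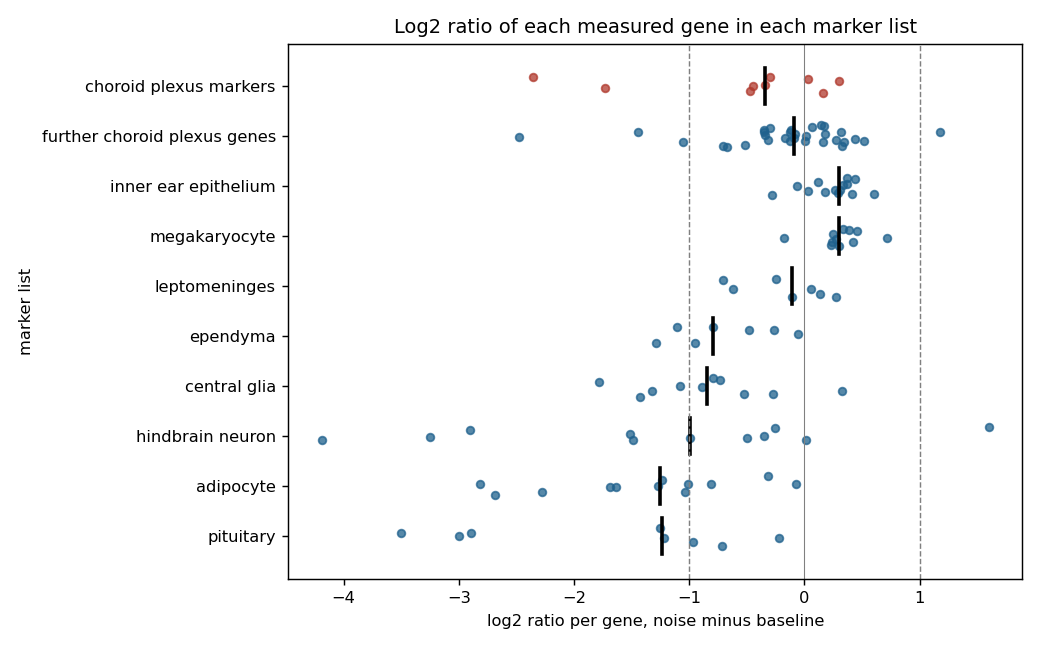
Log2 ratio (noise minus baseline, horizontal axis) of each gene measured on both arrays, 1 row per marker list, with black ticks for list medians and dashed lines at 2-fold. The choroid plexus markers (red, top row) run from -2.36 to 0.30, and their median of -0.34 lies between the inner ear row, whose median is 0.30, and the fat cell and pituitary rows, whose medians are -1.25 and -1.24.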

How the data were processed

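Total RNA was labelled with Cy3 and hybridised to 1-colour Agilent arrays, per the labels' protocols. The authors deposited scanner files of spot intensity values. Per the file headers, the software was Agilent Feature Extraction 11.5.1.1, with spatial and multiplicative detrending switched on. The log2 values of the authors' deposited table equalled log2 of the same processed signal minus a constant per array (8.30 for noise and 8.12 for baseline), with column medians of -2.81 and -2.79 and no centring per gene.

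Control spots and spots flagged as outliers (60 after noise and 58 at baseline) were left out, and no spot was saturated. Repeat spots were averaged as log2 values and the 75th percentile of the array was subtracted, for 56604 probes. Each gene's ratio was the median over its probes well above background on both arrays. For a gene well above background on 1 array, an at-least fold used as its floor the lowest signal well above background or the dim probe's own signal, whichever was higher. Summed levels add the highest-signal probe of each gene. Gene names are those of the array design, and all 9 symbols stood in RefSeq GRCm38.p6. The number of arrays limits the precision, and the scanner error covers 1 spot only.

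The members, lists and alternatives were chosen with earlier results of these data known. The text names all members and their relatives, up to 4 genes of each marker list and up to 3 of each partner list by size of log2 ratio, and genes of 1 array only past 2-fold. Some genes that this rule names are not reported here. Python 3.11.15, R 4.3.3 and limma 3.58.1 were used. The alternatives were median, quantile, loess and spike-in scaling, normexp background (offset 50), no filter on dim probes, a signal of at least 20 on both arrays, the highest-signal probe, and the deposited value table.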

Additional observations from a re-analysis of the deposited data

How the results depend on the processing

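Of 126 values recomputed over 9 alternatives, 119 stayed on their side of 2-fold or close to their main value. Close here included a marker count of 3 in place of 2 and a count of further choroid plexus genes of 2 in place of 3. It also included a median of those further genes of 0.08 in place of -0.09. Neither of the called genes, Ttr and Folr1, changed sign. The counts of 126 and 119 include values that could not move. The deposited value table repeats the main setting up to rounding, and the highest-signal probe cannot change a gene with 1 probe. With the normexp background 1 marker was at least 2-fold lower in place of 2, Folr1 was at -0.84, and 0 of the further choroid plexus genes were 2-fold lower in place of 3. With the highest-signal probe 4 markers were 2-fold lower, Enpp2 at -1.16 and Prlr at -2.16, and with a signal of at least 20 required on both arrays Prlr was at -1.32 and 3 markers were lower. The marker median lay between -0.38 and -0.17. Over all genes, 332 were at least 2-fold lower and 162 higher (32.8% of those past 2-fold higher), against 217 and 301 (58.1%) with spike-in scaling, 74 and 56 (43.1%) with normexp and 1296 and 672 with no filter on dim probes. Signals near the lowest called well above background (4.58 after noise, 4.35 at baseline) limit what Folr1 probe 2, Prlr probe 3 and Kl probe 2 can show. The same holds for the at-least folds of Klb and Cbln3. The cause of these shifts was not tested beyond the construction of each alternative. No paired analysis was possible because neither group held more than 1 array, so no replicate could be left out.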
